A study of Homo sapiens with 4 samples.

Results

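The genes described here are 10 regulators of apoptosis that lymphoma cells use to survive or die: the survival proteins BCL2, BCL2L1, BCL2A1 and MCL1, the death-promoting family members BCL2L11 and BAK1, and the inhibitors BIRC2, BIRC3, XIAP and CFLAR. They were taken by name from the platform's annotation, and every probe set assigned to 1 gene of that name was used. Of the 10 genes, 9 had such a probe set, 45 in all, among 19775 genes named on the array. BIRC3 had none in the annotation used here and was not analysed here. Intensities were measured on 4 oligonucleotide arrays of KM-H2, an established Hodgkin lymphoma cell line grown from pleural effusion cells. In this line CIITA, the activator of HLA class II genes, is fused to the transcript BX648577. The cells of all 4 arrays were transduced: those of 2 carried a non-silencing control and those of 2 the lentiviral vector pGIPZ-sh.FLJ27352, whose hairpin is aimed at the BX648577 part of the CIITA-BX648577 fusion. The model is thus 1 cell line and 1 hairpin, and the labels do not say whether the replicates were separate cultures, so the p-values measure the spread between these arrays, which may be technical.

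Mitochondrial apoptosis is set by the balance within the BCL2 family. Survival proteins such as BCL2, BCL-XL (encoded by BCL2L1), A1 (BCL2A1) and MCL1 hold the pore-forming effectors BAK and BAX in check, and BH3-only proteins such as BIM (BCL2L11) neutralise the survival proteins. Once the mitochondrial membrane is breached, caspases are activated unless XIAP blocks them, while cIAP1 and cIAP2 (BIRC2 and BIRC3) are ubiquitin ligases that keep death receptor complexes in a survival state, and c-FLIP (CFLAR) keeps the initiator caspase of those complexes inactive. In Hodgkin lymphoma cells several of these genes are known as targets of constitutive NF-kB signalling.

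The perturbing sequence is shown first because every comparison below rests on it. The stated insert of 97 bases contains 2 arms of 23 bases that are exact reverse complements of each other, at bases 20 to 42 and 58 to 80. They form the stem of the hairpin.
5p arm: gacagccacctcactatcaaata
3p arm: tatttgatagtgaggtggctgtc
The probe set of PIERCE2, the gene that the vector name FLJ27352 is generally taken to mean, read 880 and 947 with the control vector and 621 and 590 with the hairpin, 66.3% of control. Its log2 fold change was -0.58. In the 2 limma fits explained below, the adjusted p was 0.252 with the common prior, the main test, and 9.74e-05 with the intensity trend. PIERCE2 thus passed only the second. Whether this probe set reads the fused transcript was not looked up here. Array means ranged from 53.3 to 54.6. The median intensities were 9.17 and 9.28 on control arrays and 8.37 and 8.12 on knockdown arrays, so both knockdown medians were lower. All 7 listed markers of Hodgkin lines were above the intensity filter, with summed intensities of 1609 to 1614 in control and 1590 to 1664 in knockdown. Among them TNFRSF8 (CD30) overlapped between the groups at means of 112 and 124, FSCN1 was called lower by limma's intensity-trend fit, which is explained below (631 to 504, log2 fold change -0.32, adjusted p = 0.0162), and FUT4 (CD15) higher (75.3 to 104, 0.39, adjusted p = 0.0406). Of the lists for other cells, 1 of 7 T and NK cell genes (CD3D) and 3 of 7 myeloid genes passed that filter. So did 1 of 6 epithelial genes and 5 of 6 fibroblast genes. CD3E, LYZ and EPCAM did not pass it, with single-array values of at most 14.0, 8.15 and 7.93. The brightest genes of these lists did not share a direction. Control and knockdown means were 188 and 239 for CD3D and 80.25 and 85.0 for the myeloid gene CSF1R. For the epithelial gene KRT8 they were 12.3 and 15.1, and for the fibroblast gene COL1A1 54.3 and 43.0. CD3D lay higher and COL1A1 lower on both knockdown arrays, while CSF1R and KRT8 overlapped between the groups. The intensity-trend fit called CD3D higher (log2 fold change 0.32, adjusted p = 0.04985) and COL1A2 lower (54.8 to 35.1, -0.47, adjusted p = 0.0405). The summed intensity of the fibroblast list was 146 to 161 on control and 111 to 115 on knockdown arrays, that of the T and NK list 211 to 227 and 259 to 303, that of the myeloid list 133 to 136 and 129 to 131, that of the epithelial list 39.8 to 60.2 and 33.8 to 50.8, and the part of these differences in the results below was not tested.

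At their brightest probe sets, 7 of the 9 measured members read lower in knockdown cells and BCL2L1 and BAK1 read higher. BCL2 had the largest difference, at 61.6% of control, followed by BIRC2 at 77.9% and CFLAR at 81.0%, while BCL2L1 stood at 133%. Each log2 fold change is the knockdown mean less the control mean of log2(intensity + 16), a scale on which dim probe sets change less than their intensities do. In these bulk RNA values, fewer cells making a transcript and less of it per cell cannot be told apart. No member passed the main test, a limma fit over 12922 genes with 1 prior variance for all (common-prior fit, Benjamini-Hochberg adjusted p below 0.05), in which 0.0155% of all genes were called. At an unadjusted p below 0.05 that fit had 3 members lower (BCL2, BIRC2 and CFLAR) and 1 higher (BCL2L1), against 7.68% and 6.41% of all genes. When the prior variance was allowed to follow intensity (intensity-trend fit), 2 of the 9 were called lower, BCL2 and BIRC2, and 0 higher, against 1.40% of all genes called lower and 1.59% called higher.

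The median log2 fold change of the 9 members was -0.15, against -0.01 over all genes tested. Both knockdown arrays lay below both control arrays for 6 members (BCL2, BCL2A1, MCL1, BCL2L11, BIRC2 and CFLAR) and above them for 1 (BCL2L1), while XIAP and BAK1 overlapped. The same held for 24.5% (lower) and 22.7% (higher) of all genes. With 2 arrays against 2, an exact two-sided permutation test of 1 value cannot go below p = 0.333.

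**Figure D1:**
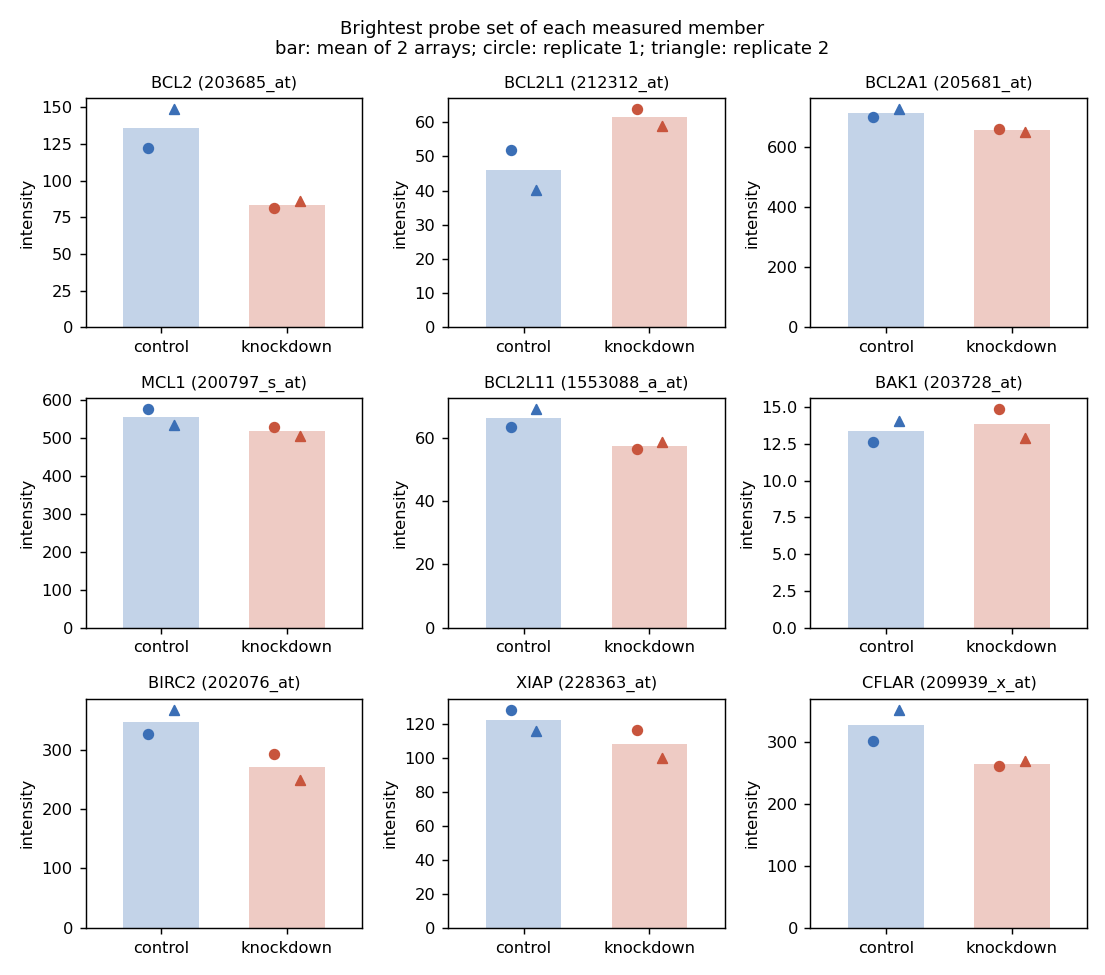
Intensity (linear, from 0) of the brightest probe set of each of the 9 measured members on the 2 control and 2 knockdown arrays; bars are means of 2 arrays, circles replicate 1 and triangles replicate 2. BCL2 read 122 and 149 in control and 81.1 and 85.9 in knockdown, and BCL2L1 lay higher on both knockdown arrays than on both control arrays.

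**Figure D2:**
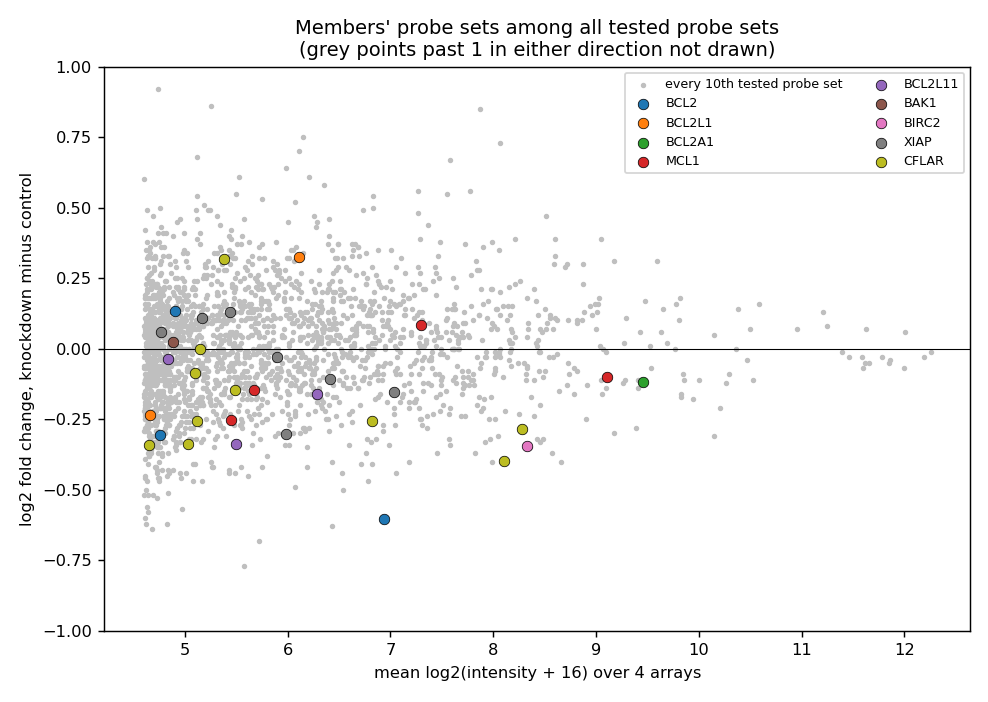
Log2 fold change (knockdown minus control) against mean log2(intensity + 16) for the members' 32 tested probe sets, coloured by gene, over every 10th of the 22639 tested probe sets in grey. The brightest BCL2 probe set lies at -0.60, and the other 31 lie between -0.40 and 0.32.

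Among the survival genes, BCL2, the gene first found at the breakpoint of follicular lymphoma, was brightest at probe set 203685_at. It read 122 and 149 with the control vector, against 81.1 and 85.9 with the hairpin. The groups did not overlap, and control replicate 2 was the highest array. The means were 136 ± 18.6 and 83.5 ± 3.39 (SD, n = 2 each), a log2 fold change of -0.60 (SE 0.12) with limma adjusted p = 0.252 in the common-prior fit and 0.00508 in the intensity-trend fit. Without control replicate 2 the change was -0.48 and the intensity-trend adjusted p 0.0556, and the adjusted p was at most 0.0061 when any other array was left out. In the intensity-trend fit over all probe sets, 203685_at was called with all arrays (adjusted p = 0.00608) and without control replicate 2 (0.0337). On the mean of all its probe sets, BCL2 differed by only -0.20. The 3 other probe sets had low intensities, and their groups overlapped. Probe set 207004_at read 11.7 and 13.4 against 10.5 and 20.9 (log2 fold change 0.13). Probe set 203684_s_at read 6.37 and 24.7 in the controls, which were further apart than the groups, against 7.18 and 9.64. The remaining one, 207005_s_at, was below the intensity filter, with all values at or below 10.9.

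BCL2L1 encodes BCL-XL and, by alternative splicing, the shorter death-promoting BCL-XS. Which of these forms each probe set reads was not looked up here. Its brightest probe set, 212312_at, read 51.8 and 40.3 with the control vector, against 63.8 and 59.0 with the hairpin. It was the only member whose 2 knockdown arrays both lay above the controls at the brightest probe set (log2 fold change 0.32, SE 0.12, limma adjusted p = 0.323, and 0.168 with the intensity trend). The change was 0.19 without control replicate 2, 0.46 without control replicate 1 and 0.12 on the mean of all BCL2L1 probe sets. The dimmer 206665_s_at pointed the other way, with 12.4 and 10.6 against 8.13 and 6.68 (-0.23, adjusted p = 0.394). Both of its knockdown values lay under the filter intensity of 8.26, so it was tested only because of its control values. The other BCL2L1 probe sets, 215037_s_at and 231228_at, lay below the filter, at means of up to 6.85.

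BCL2A1 and MCL1, the short-lived survival proteins of the family, were measured at high signal, and their differences were small. BCL2A1 had a single probe set, which read 701 and 728 with the control vector, against 662 and 652 with the hairpin. The groups were separate, but the means of 714 ± 18.8 and 657 ± 7.24 differed by only 0.12 on the log2 scale, downwards (SE 0.10, limma adjusted p = 0.618, and 0.355 with the intensity trend). MCL1 read 575 and 535 against 527 and 505 at its brightest probe set, 200797_s_at, a log2 fold change of -0.10 (SE 0.10, limma adjusted p = 0.690). Its second probe set, 200798_x_at, overlapped between the groups at 141 and 134 against 155 and 138 (0.08). The dimmer probe sets 214057_at and 214056_at read lower on both knockdown arrays, with fold changes of -0.15 and -0.25 on the log2 scale. The other MCL1 probe sets, 227175_at and 200796_s_at, stayed below the filter with values of at most 8.01.

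On the death-promoting side, BCL2L11 encodes BIM, the BH3-only protein that binds every survival protein of the family. Probe set 1553088_a_at read 63.6 and 69.1 with the control vector, against 56.4 and 58.7 with the hairpin, 86.8% of control with no overlap (log2 fold change -0.16, SE 0.10, limma adjusted p = 0.503). Probe set 1553096_s_at read 41.3 and 29.3 against 26.5 and 22.1, lower on both knockdown arrays but with controls that were themselves 0.34 apart on the log2 scale (-0.34, adjusted p = 0.355). Probe set 225606_at overlapped, at 16.1 and 10.03 against 9.44 and 15.3 (-0.03). The other 4 BCL2L11 probe sets lay below the filter, with values of at most 16.9. Of these, 1555372_at read 6.48 and 16.9 against 5.43 and 2.48. It was lower on both knockdown arrays (-0.45), but its controls were 0.55 apart on the log2 scale. The groups of 222343_at, 208536_s_at and 1558143_a_at overlapped. BAK1 encodes a pore-forming effector and was dim, at 12.7 and 14.0 against 14.9 and 12.9 at its only probe set. Its groups overlapped, and its log2 fold change of 0.02 (SE 0.10, adjusted p = 0.933) changed sign without control replicate 1 (-0.01) or without knockdown replicate 1 (-0.02).

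Among the inhibitors of apoptosis, BIRC2 (cIAP1) had 1 probe set, 202076_at. It read 327 and 367 with the control vector, against 293 and 248 with the hairpin. All 4 arrays were spread out, but the groups did not overlap. The means were 347 ± 28.6 and 271 ± 31.6 (SD, n = 2 each), a log2 fold change of -0.34 (SE 0.12) with limma adjusted p = 0.302 in the common-prior fit and 0.0399 in the intensity-trend fit. The intensity-trend call was lost without control replicate 2 (-0.26, adjusted p = 0.204) and without knockdown replicate 2 (-0.23, adjusted p = 0.389). It held without control replicate 1 (-0.43, adjusted p = 0.0487) and without knockdown replicate 1 (-0.46, adjusted p = 0.00260).

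XIAP, the inhibitor that binds executioner caspases directly, had 7 probe sets, all above the filter, with 4 below 0 and 3 above. The brightest, 228363_at, read 129 and 116 with the control vector, against 116 and 100.3 with the hairpin, with overlapping groups (log2 fold change -0.15, SE 0.12, limma adjusted p = 0.575). The probe sets 225858_s_at and 225859_at read lower on both knockdown arrays, the second with 54.7 and 53.7 against 39.8 and 42.0 (-0.30, adjusted p = 0.296, and 0.185 with the intensity trend). Probe set 243026_x_at read higher on both, at 26.4 and 24.5 against 28.5 and 30.2 (0.13), and 235222_x_at, 206536_s_at and 206537_at overlapped. The XIAP probe sets thus gave no common direction, and their mean differed by -0.04.

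CFLAR encodes c-FLIP in long and short forms, which block caspase-8 at death receptors. It had 14 probe sets, of which 10 passed the filter. Of those, 8 are of the x type, whose probes can also match other sequences. The brightest, 209939_x_at, read 302 and 353 with the control vector, against 262 and 269 with the hairpin, 81.0% of control without overlap between the groups (log2 fold change -0.28, SE 0.11, limma adjusted p = 0.336, and 0.0748 with the intensity trend). Probe set 210563_x_at read 261 and 344 against 214 and 233, a change of -0.40 that passed the intensity-trend fit over all probe sets (adjusted p = 0.0479) and not the common-prior one (0.311). That call was lost without control replicate 2 (-0.21, adjusted p = 0.264) and without knockdown replicate 1 (-0.34, adjusted p = 0.0943). The third, 210564_x_at, read 101 and 114 against 80.0 and 95.5 (-0.26). On all 3 the highest array was control replicate 2, and on the mean of all CFLAR probe sets the change was -0.16.

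The dimmer CFLAR probe sets were mixed. Probe sets 211316_x_at, 237367_x_at and 235427_at lay lower on both knockdown arrays (-0.15, -0.34 and -0.34), the last of them tested only because of its control values, whereas 208485_x_at, 209508_x_at and 239629_at overlapped (-0.26, -0.08 and 0.00). Probe set 211862_x_at lay higher on both, at 21.8 and 21.0 against 28.5 and 32.8 (0.32, limma adjusted p = 0.296, and 0.243 with the intensity trend). Altogether 8 of the 10 lay below 0. All these probe sets are assigned to the same gene and were read on the same arrays, so they are not replicates.

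Over all 32 member probe sets above the filter, 23 lay below 0 and 9 above, with a median of -0.15 against 0.00 over the 22639 probe sets tested. The remaining 13 of the 45 were too dim to be tested. In limma's common-prior fit over all probe sets 0 of the 32 were called, while 0.00883% of all probe sets were. At an unadjusted p below 0.05 that fit had 8 of the 32 lower and 2 higher, against 6.55% and 7.29% of all probe sets. In the intensity-trend fit 3 were called lower (BCL2, BIRC2 and CFLAR, 1 each) and 0 higher, against 0.906% and 1.43% of all probe sets. Both knockdown arrays lay below both controls at 17 of the 32 and above at 3, against 22.1% and 24.4% of all probe sets. A probe set can pass the filter through the brighter group alone, so these counts describe the probe sets tested and not every probe set of the members.

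**Figure D3:**
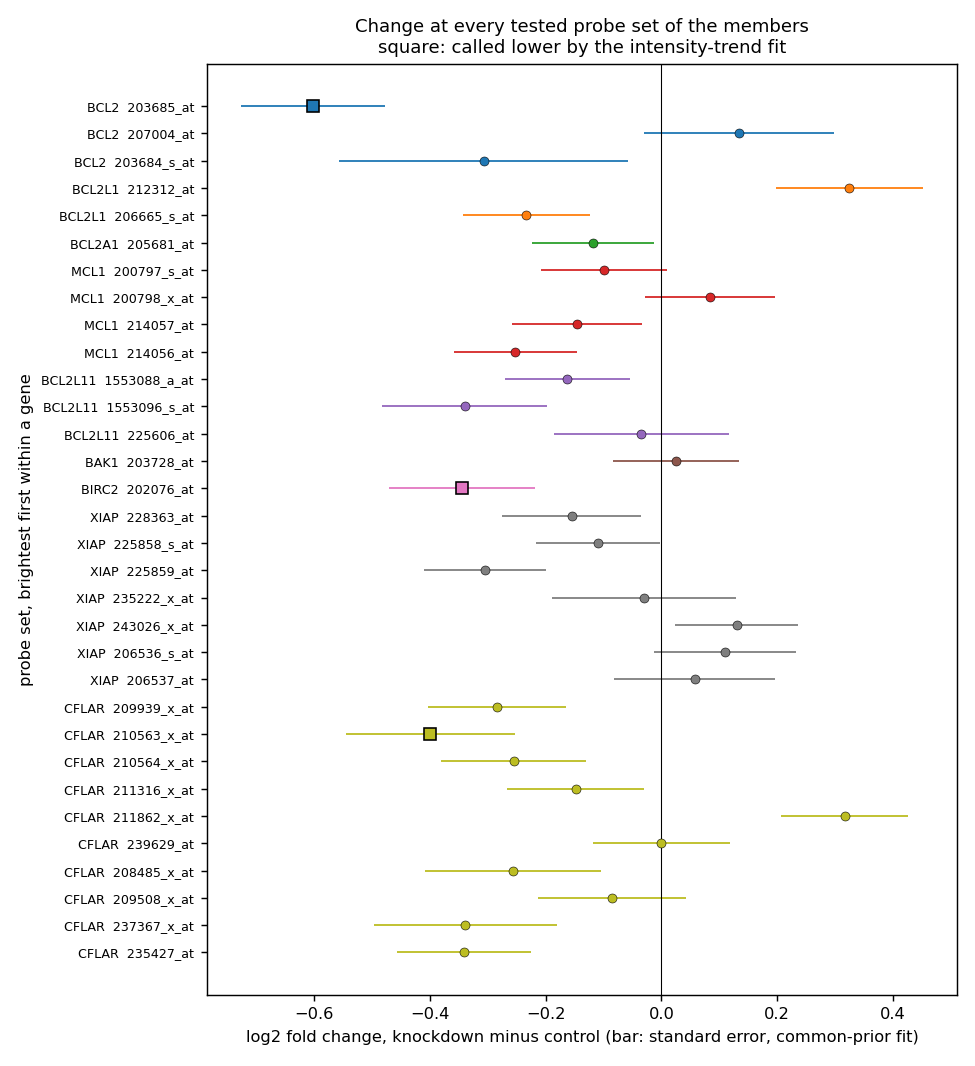
Log2 fold change (knockdown minus control, horizontal axis) of the 32 tested probe sets of the members, brightest first within each gene, with the standard error of limma's common-prior fit as bars. Squares mark the 3 probe sets called lower by the intensity-trend fit, and probe sets on both sides of 0 are seen for BCL2, BCL2L1, MCL1, XIAP and CFLAR.

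Whether probe sets of the same gene changed differently was tested on the log2 ratio of each dimmer probe set to the brightest, over 9717 such pairs of all genes. The members had 23 pairs, of which 0 passed after adjustment in either limma fit (adjusted p from 0.301 to 0.971 in the common-prior fit), against 0.0206% of all pairs in the common-prior fit. At an unadjusted p below 0.05 were 3 of the 23, a share near the 12.9% of all pairs. Those with the largest moderated t were BCL2 207004_at against 203685_at, whose changes differed by 0.74 on the log2 scale (SE 0.18, adjusted p = 0.301), and CFLAR 211862_x_at against 209939_x_at, which differed by 0.60 (SE 0.15, adjusted p = 0.308). For BCL2L1 the change of 206665_s_at was lower by 0.56 than that of 212312_at, written as -0.56 (SE 0.14, adjusted p = 0.309), with the limit on 206665_s_at given above. The opposite signs seen within these 3 genes were therefore not shown to differ after adjustment.

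The first-listed promoter window of each of the 3 genes with a probe set called lower by the intensity-trend fit is shown so that they can be set side by side. They are from RefSeq (GRCh38.p14), where 9 of the 10 members had 16 windows of 300 bases, running from 250 before to 50 after a gene's start. MCL1 was not matched. Capitals mark matches on either strand to the NF-kB consensus, the cyclic AMP response element TGACGTCA, the GC box GGGCGG, the CCAAT box CCAAT or the TATA box TATAAA, and overlapping matches run together.
BCL2 (chr18:63319720-63320019, minus strand): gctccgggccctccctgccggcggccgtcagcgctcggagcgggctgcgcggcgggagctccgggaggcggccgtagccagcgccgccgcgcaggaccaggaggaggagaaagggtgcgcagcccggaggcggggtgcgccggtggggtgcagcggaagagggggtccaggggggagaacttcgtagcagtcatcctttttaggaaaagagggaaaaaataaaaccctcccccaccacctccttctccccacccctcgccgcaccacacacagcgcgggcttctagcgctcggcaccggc
BIRC2 (chr11:102346964-102347263, plus strand): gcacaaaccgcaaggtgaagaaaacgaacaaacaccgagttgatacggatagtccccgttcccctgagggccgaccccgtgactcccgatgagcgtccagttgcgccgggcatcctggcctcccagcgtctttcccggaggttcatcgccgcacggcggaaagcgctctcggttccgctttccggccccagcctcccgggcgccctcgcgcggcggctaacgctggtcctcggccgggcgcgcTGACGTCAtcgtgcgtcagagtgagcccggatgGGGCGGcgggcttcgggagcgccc
CFLAR (chr2:201118466-201118765, plus strand): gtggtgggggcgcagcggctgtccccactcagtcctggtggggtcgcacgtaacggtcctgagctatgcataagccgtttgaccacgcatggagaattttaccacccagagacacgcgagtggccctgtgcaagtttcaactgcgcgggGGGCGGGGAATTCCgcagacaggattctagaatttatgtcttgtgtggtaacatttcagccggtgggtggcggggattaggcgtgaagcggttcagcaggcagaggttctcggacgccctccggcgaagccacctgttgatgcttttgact
The BCL2 window held 0 matches to any of these motifs. The BIRC2 window shown held 1 cyclic AMP response element and 1 GC box, and the other BIRC2 window, which overlaps it, 1 and 3. The CFLAR window shown held 1 NF-kB match that overlaps a GC box. Of the 3 other CFLAR windows, 1 held 2 GC boxes and the others no match. Such a NF-kB match was found in 11.3% of the 35116 windows of that length, the cyclic AMP response element in 1.85%, the GC box in 45%, the CCAAT box in 34.6% and the TATA box in 11.5%. Among the 16 member windows 2 held a NF-kB match, the other one being that of BIRC3, and 2 held the cyclic AMP response element, both of them windows of BIRC2. A match is a run of letters and was not tested for binding.

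Among the other apoptosis genes, values above and below 0 were about equally frequent. Of 69 other genes in 9 lists, 64 had a named probe set and 54 passed the filter. Of these, 25 lay below 0 and 29 above, with a median log2 fold change of 0.02, against -0.01 over all genes tested and -0.15 for the members, a difference that was not tested. In limma's common-prior fit 0 of the 54 passed. In the intensity-trend fit 3 were called lower and 3 higher, against the 1.40% and 1.59% of all genes given above.

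Among BH3-only genes, 6 tested with a median of 0.04, BMF, an antagonist of survival proteins, read 7.4 and 6.89 with the control vector, against 18.8 and 24.1 with the hairpin. The groups were far apart, although the control values lay under the filter and the gene was tested only because of its knockdown values (log2 fold change 0.69, SE 0.11, limma adjusted p = 0.252, and 0.0303 with the intensity trend). BNIP3, a mitophagy receptor and hypoxia target, read 326 and 396 against 279 and 266 (-0.38, adjusted p = 0.279, and 0.0260 with the trend), and its other probe set, 201848_s_at, overlapped with a change of -0.24. The intensity-trend call of BMF held only without knockdown replicate 1 and that of BNIP3 only without control replicate 1 or knockdown replicate 1.

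The 4 other inhibitor genes had a median of 0.21. BIRC5 (survivin), which also works in mitosis, read 167 and 181 with the control vector, against 226 and 229 with the hairpin, higher on both (0.36, SE 0.10, limma adjusted p = 0.259, and 0.0289 with the trend). Its other tested probe sets gave 0.52, 0.29 and -0.07. Of the 4 antagonists of these inhibitors, with a median of 0.05, HTRA2, a mitochondrial protease that binds XIAP after release, read 105 and 110 against 149 and 145 (0.40, SE 0.10, adjusted p = 0.255, and 0.0273 with the trend), and its second probe set read higher on both knockdown arrays as well (0.23). BIRC5 kept its intensity-trend call only without control replicate 2, and HTRA2 lost it whichever array was left out.

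The 7 tested partners of cIAP proteins had a median of 0.04. TNFAIP3 (A20), an NF-kB feedback inhibitor, read 220 and 278 with the control vector, against 185 and 178 with the hairpin (-0.42, SE 0.13, limma adjusted p = 0.277, and 0.0284 with the trend), but 104 and 125 against 112 and 127 at its other probe set (0.06). All 5 tested genes of the list for MCL1 turnover lay below 0 at their brightest probe sets, with a median of -0.15. Over the whole table, 6786 of 12922 genes lay below 0. HUWE1 and GSK3B were at -0.002 and -0.02 with overlapping groups, and other HUWE1 probe sets gave 0.06, -0.25 and 0.01. USP9X gave -0.15 and DDIT3 -0.27, each lower on both knockdown arrays. Whether these 2 act on MCL1 in the same direction as the rest of the list was not looked up here. FBXW7, which marks MCL1 for degradation, read 178 and 171 against 132 and 126 (-0.40, SE 0.10, adjusted p = 0.255, and 0.0227 with the trend), and its other probe sets gave -0.32 and -0.12. The intensity-trend call of TNFAIP3 was lost without control replicate 2 and without knockdown replicate 2, and that of FBXW7 held only without knockdown replicate 1.

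In 4 lists no gene passed either fit at its brightest probe set. Of the 9 caspase and apoptosome genes (median -0.05), CASP4 gave 0.29 and APAF1 -0.13. Of the 15 death receptor and adaptor genes (median 0.06), FASLG gave -0.42, from values of at most 12.8 and tested only because of its control values, and the adaptor CRADD gave 0.32, from 104 and 94.7 with the control vector, against 127 and 130 with the hairpin. Of the other survival genes BCL2L2 (BCL-w) gave 0.25 and BCL2L12 -0.13. Of the other effectors, BAX read 32.9 and 26.6 against 30.2 and 27.6 (-0.02) and BOK gave -0.06. Limma adjusted p-values of these 8 genes ranged from 0.255 to 0.943 in the common-prior fit.

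Dimmer probe sets of these genes were also tested. Of the 115 tested probe sets of the other apoptosis genes, limma's common-prior fit called 0, and the intensity-trend fit called 4 lower and 6 higher, against 0.906% and 1.43% of all probe sets. Those not described above belong to FAS, CASP2 and BIRC5 and were singled out after their values were seen. FAS, a death receptor, read 129 and 125 against 171 and 171 at 215719_x_at (0.38, trend adjusted p = 0.0298) and 90 and 105 against 143 and 138 at 216252_x_at (0.47, 0.0209). Both are of the x type, and the brighter FAS probe sets 204780_s_at and 204781_s_at overlapped between the groups (-0.03 each). CASP2, an initiator caspase, read 122 and 146 against 98.1 and 91.0 at 226036_x_at (-0.44, trend adjusted p = 0.0328), while its brightest probe set gave -0.10 and its 3 dimmest values from 0.01 to 0.15. The probe set of BIRC5 with a change of 0.52 was called as well (trend adjusted p = 0.0311).

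**Figure D4:**
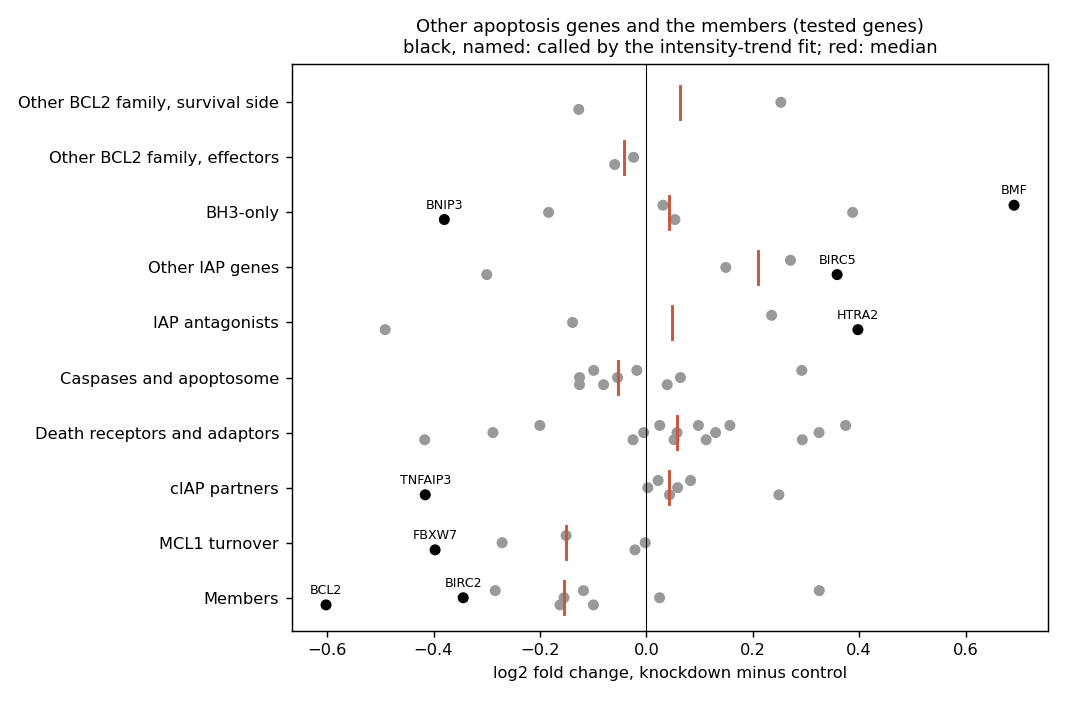
Log2 fold change (knockdown minus control) of the tested genes of 9 other apoptosis lists and of the 9 measured members, 1 point per gene, with red lines at the medians. Black, named points passed limma's intensity-trend fit, and the members' median of -0.15 lies beside that of the MCL1 turnover genes.

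BCL2 had the largest moderated t of the members. Over the 4 arrays, the tested genes whose log2 values, centred on their own means, lay nearest to those of BCL2 were AKR1E2, SRCAP and NKX6-1, at root mean square differences of 0.041, 0.041 and 0.044 against a median of 0.33 over all genes tested. SRCAP, for example, read 17.2 and 25.7 with the control vector, against 6.92 and 8.12 with the hairpin. NKX6-1 read 14.6 and 19.1 against 5.94 and 7.55. The knockdown values of SRCAP and NKX6-1 lay under the filter intensity of 8.26, so both genes were tested only because of their control values. These genes were picked as the nearest to BCL2 of all genes tested, so distances far under the median follow from that choice. With 4 arrays and this choice the likeness is a description only.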

How the data were processed

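Linear probe set intensities of 54613 probe sets on 4 arrays were used as deposited. Per the labels' protocols, biotinylated cRNA was made by the Affymetrix 1-cycle method from column-purified total RNA; the summarisation step that led to each intensity was not given in the sources used here. Precision is limited by the small number of arrays. Probe sets were named through the platform annotation, of which 41091 had 1 gene, 1801 several and 11721 none; only the first kind was named.

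Values were taken as log2(intensity + 16). Array medians spanned 0.07, under the limit of 0.2 set for centring. Probe sets with a mean under the median of all (4.60, an intensity of 8.26) were left out, leaving 12922 genes at their brightest probe set, 22639 probe sets and 9717 pairs of probe sets of a gene. The 2 knockdown arrays were set against the 2 controls with limma 3.58.1 under R 4.3.3, with Benjamini-Hochberg adjustment of p-values over each whole table. The scripts were tested on simulated data. The members and gene lists were chosen with earlier results of these data known. Named are all members, other apoptosis genes past the threshold of 0.05 in either fit, and the 2 with the largest moderated t in lists with none; the same rule named pairs. Same-numbered arrays did not deviate together (r = -0.01 across genes), and the labels give no shared day or culture.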

Additional observations from a re-analysis of the deposited data

How the results depend on the processing

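The main counts were 0 members, 0 member probe sets, 0 other apoptosis genes, 2 genes, 2 probe sets and 2 pairs of probe sets called. In that order, the intensity trend gave 2, 3, 6, 387, 529 and 2, and a pseudocount of 64 gave 2, 3, 6, 406, 622 and 221. A pseudocount of 1 gave 0 throughout. A stricter filter at the 75th percentile gave 0, 1, 0, 18, 107 and 0, and no filter left 0 probe sets called. The mean of all probe sets of a gene left 1 gene, and a threshold of 0.01 left 0 pairs. With a replicate block the counts were 0, 0, 0, 2, 2 and 2, and with the block and the intensity trend together 3, 4, 10, 1010, 1383 and 2; the replicate number is no known pairing, so this is no stronger evidence. Leaving out single arrays gave 0 members, 0 member probe sets, 0 other apoptosis genes, 1 to 6 genes, 1 to 3 probe sets and 3 to 9 pairs with the common prior. With the intensity trend, leaving out control replicate 1, control replicate 2, knockdown replicate 1 or knockdown replicate 2 gave, in turn, 3, 0, 2 and 1 members, 5, 1, 2 and 2 member probe sets, 2, 1, 4 and 0 other apoptosis genes, 260, 143, 377 and 142 genes, 747, 444, 463 and 179 probe sets, and 10, 3, 4 and 3 pairs. The lone array of a group was then assumed to vary like the other group. Without control replicate 2 the gene-level fits called no member with either prior, and the intensity-trend fit over all probe sets called 1 member probe set, 203685_at of BCL2.

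BAK1 was the only member whose sign turned, to -0.00873 without control replicate 1 and -0.0227 without knockdown replicate 1 with either prior, within a range of -0.0227 to 0.0725 over the arrays left out. The other 8 kept their sign in every alternative run. Centring the arrays on their medians left the main counts unchanged but moved the members upwards. BCL2 was then at -0.545, BIRC2 at -0.287, BCL2A1 at -0.0611, MCL1 at -0.0423 and BCL2L1 at 0.382. BCL2 ranged from -0.73 to -0.48, BIRC2 from -0.46 to -0.23, CFLAR from -0.39 to -0.18 and BCL2L1 from 0.19 to 0.46 over the arrays left out, and the mean of all probe sets moved BCL2 to -0.20 and BCL2L1 to 0.12. The causes of these differences were not tested. Dim signal limits the 13 untested probe sets and BAK1.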

Other observations

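These genes were chosen after their values were seen. BAD, a BH3-only gene whose protein binds BCL2 and BCL-XL, read 40.2 and 31.3 with the control vector, against 52.0 and 51.0 with the hairpin at its brighter probe set (log2 fold change 0.39, limma adjusted p = 0.273, and 0.108 with the intensity trend). Its dimmer probe set gave 0.50 (adjusted p = 0.248 over all probe sets), so that both lay above the controls without passing either fit. XAF1, an antagonist of XIAP and an interferon-inducible gene, read 30.8 and 28.5 against 17.9 and 15.1 (-0.49, limma adjusted p = 0.252, and 0.0724 with the trend), while its other probe set gave 0.01.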
